A study of Homo sapiens with 24 samples.

Results

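Time in culture without the compound was examined in MM1S, an established human multiple myeloma cell line, by setting 3 libraries of cells kept 24 h with the vehicle DMSO against 3 libraries kept 6 h with DMSO. These 6 libraries, chosen by line, treatment and time on the labels, are part of a series of 24, in which MM1S and H929, a second established myeloma line, received DMSO or YKL-5-124 (YKL below), a code-named inhibitor of the kinase CDK7 per the series title. The MM1S DMSO labels carry 98 nM and the H929 DMSO labels 83 nM, the figures given for the compound. H929 DMSO at 24 h and 6 h, and MM1S with YKL at 24 h and 6 h, each 3 libraries, serve for comparison. Per the labels' protocols, cells grew in plates of 12 wells, in 1 mL of RPMI with 10% FBS per well, and about 250000 cells were lysed for RNA that was made into libraries of transcript 3′ ends. Whether the replicates were separate cultures is not on the labels, so the p-values speak of the spread among these libraries alone, which could be technical. Nor do they say when medium was changed or how dense the cultures were.

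Cells in culture use glucose and oxygen and release lactate and acid as they grow. When oxygen falls, prolyl hydroxylases of the EGLN family stop marking the hypoxia-inducible factors HIF-1α and HIF-2α for destruction, and these factors bind DNA that holds the core ACGTG and raise genes of glucose uptake, glycolysis, collagen hydroxylation, blood vessel growth and mitophagy. When proteins unfold, the factor HSF1 binds heat shock elements and raises chaperone genes. Plasma cells and the myelomas that arise from them secrete antibody, and many myelomas depend on the transcription factors IRF4 and MYC.

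The deposited values are FPKM (fragments scaled by transcript length and library size), here on a scale that holds spike-in transcripts level. On that scale the whole MM1S library was smaller at 24 h. The median-of-ratios factor, which compares the typical gene of a library with its mean over the 24 libraries, was 0.445, 0.808 and 0.365 in the MM1S libraries at 24 h, against 1.22, 1.24 and 1.04 at 6 h, a 0.437-fold level (two-sided exact permutation test, p = 0.1, which is the lowest value possible with 3 against 3). In H929 the factor at 24 h was 0.945-fold that at 6 h (exact permutation test, p = 0.7). In bulk samples, fewer cells in the lysate and less RNA per cell cannot be told apart. Each library was therefore divided by its factor, and "rescaled FPKM" below means a level relative to the median gene. Without the division the median gene stood 0.737 lower at 24 h on the log2 scale, and 32 genes were called higher (0.258%) and 6950 lower (56.0%).

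On the rescaled values, limma called 1274 of 12418 genes higher at 24 h (10.3% of those tested) and 669 lower (5.39%) at a Benjamini-Hochberg adjusted p under 0.05. The median gene differed by 0.13 on the scale of log2(rescaled FPKM + 1), on which all log2 differences below are given as 24 h minus 6 h with their standard error. The 3 libraries at 24 h lay above all 3 at 6 h for 2289 genes (18.4%), and below them for 1181 (9.51%). In H929 the same test called 80 genes higher (0.644%) and 47 lower (0.378%). The excess of rises in MM1S lay in genes of lower level. At 1 to 4 rescaled FPKM 348 genes were higher and 45 lower, at 16 to 64 they were 249 and 252, and above 64 they were 139 and 173. Cyclic loess scaling, which levels differences that go with the gene's level, gave 1029 higher (8.29%) and 810 lower (6.52%) in MM1S, with a median of 0.023.

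The 3 libraries at 24 h were not alike. Replicate 1 carried a spike-in spread of 0.58 (SD of log2 deviations), against 0.155 to 0.329 in the other DMSO libraries, and genes of 1 to 4 rescaled FPKM had a median of 0.457 above the 6 h mean in it, against 0.131 in replicate 2 and 0.119 in replicate 3. Without replicate 1, 605 genes were called higher and 361 lower. The spread was estimated over all 24 libraries. When only the 6 libraries of the comparison entered the fit, 24 genes passed, 22 of them also called above, and 2499 had an unadjusted p under 0.05. The named genes still called in that smaller fit were CDKN1C, DDIT4, DNAJB1, HSPA1B, NDRG1, P4HA1, PFKFB3 and PFKFB4.

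**Figure D1:**
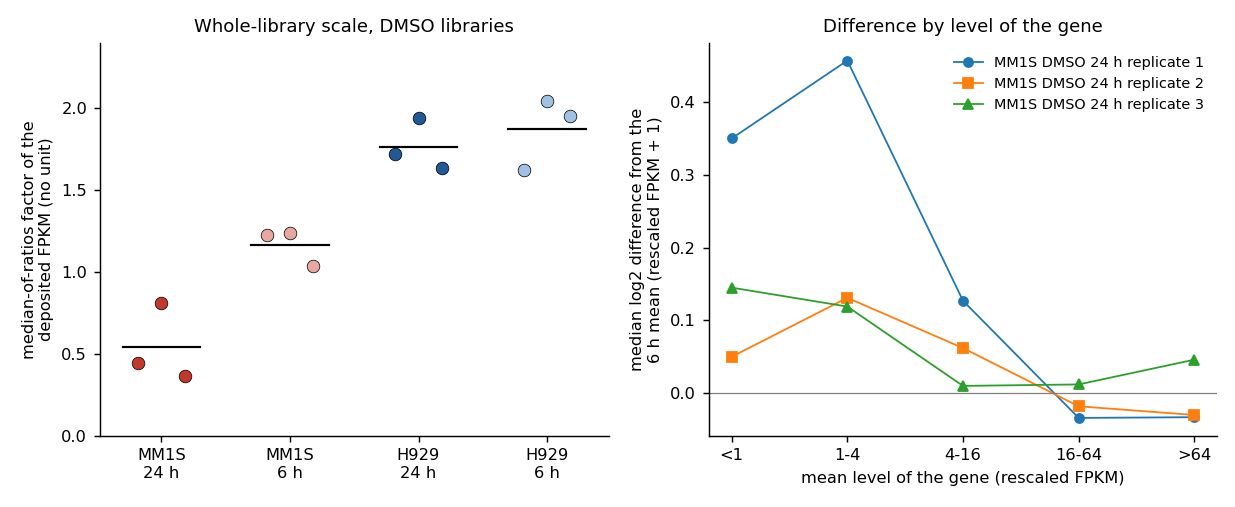
Left, the median-of-ratios factor of the deposited FPKM (no unit) in each DMSO library, with the group mean as a line; the 3 MM1S libraries at 24 h lie below the 3 at 6 h, and the H929 groups overlap. Right, the median log2 difference of each MM1S library at 24 h from the 6 h mean, on rescaled FPKM + 1, over genes grouped by mean level; replicate 1 stands at 0.457 for genes of 1 to 4 FPKM and near 0 above 16 FPKM.

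Most genes on a list of hypoxia-induced genes rose. This list, like those below, was written with earlier results of these data known, so its counts are descriptive and no test. Of 17 tested members, 13 were called higher and 0 lower (background 10.3% and 5.39%), with a median difference of 0.704 against 0.13 over all genes tested. Every tested member had a positive difference after rescaling. In H929, 0 were called higher and 2 lower, with a median of -0.367. On the deposited scale, where the median gene lay 0.737 lower, 1 member was called higher and 3 lower. Without 24 h replicate 1, and likewise without 6 h replicate 2, 8 members were called higher.

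The largest difference on this list belonged to P4HA1, the catalytic subunit of a collagen prolyl hydroxylase. P4HA1 stood at 105, 119 and 117 rescaled FPKM in the MM1S libraries at 24 h, against 27.0, 22.5 and 20 at 6 h. The groups were far apart, with 114 ± 7.30 at 24 h and 23.2 ± 3.56 at 6 h (SD, n = 3 each), a log2 difference of 2.25 ± 0.14 (limma, adjusted p = 5.55e-09). It remained called on the deposited scale, with a log2 difference of 1.08. In H929, P4HA1 stood at 26.4 ± 4.51 at 24 h and 30.5 ± 3.92 at 6 h, with overlapping libraries (log2 difference -0.21 ± 0.14, adjusted p = 0.54).

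NDRG1, a stress-induced gene long used as a marker of hypoxia, stood at 227, 252 and 266 rescaled FPKM at 24 h, against 97.8, 81.1 and 106 at 6 h in MM1S, a log2 difference of 1.38 ± 0.15 (adjusted p = 1.26e-05). BNIP3L, a receptor that marks mitochondria for autophagy, had 14.6, 18.8 and 14.1 at 24 h, against 8.62, 8.52 and 7.51 at 6 h. Its log2 difference was 0.86 ± 0.13 (adjusted p = 0.000341), and -0.21 on the deposited scale. Both genes separated the 24 h from the 6 h libraries in MM1S. In H929 the BNIP3L libraries also separated, the other way, at 9.44 ± 0.815 at 24 h and 13.9 ± 0.280 at 6 h (adjusted p = 0.0576).

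KDM3A, a histone H3K9 demethylase, averaged 28.2 ± 5.62 rescaled FPKM at 24 h and 13.3 ± 0.934 at 6 h (log2 difference 1.01 ± 0.16, adjusted p = 0.000572). VEGFA, the main growth factor of blood vessels, averaged 16.5 ± 2.03 at 24 h and 10.1 ± 2.83 at 6 h (0.69 ± 0.17, adjusted p = 0.0109). Smaller rises passed for FAM162A (0.70), SLC16A3, the lactate exporter (0.71), P4HA2 (0.92), INSIG2 (0.65), EGLN1, the oxygen-sensing hydroxylase itself (0.52), PDK1, which keeps pyruvate from the mitochondria (0.44), ERO1A (0.42) and MXI1 (0.40). SLC16A3 was the only one of these 8 whose libraries overlapped, since 24 h replicate 1 stood at 12.7 and the other 24 h replicates at 32.7 and 31.1, against 15.3, 14.8 and 12.2 at 6 h.

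The members that did not pass were BNIP3, ANKRD37, ADM and EGLN3. ANKRD37 stood at 167, 83.3 and 69.4 at 24 h, against 42.9, 36.2 and 38.7 at 6 h (log2 difference 1.31 ± 0.51, adjusted p = 0.0813), with no overlap but a wide spread over the series. BNIP3, the paralogue of BNIP3L, lay near the floor of the files in MM1S, at 3, 0.257 and 0.546 at 24 h and 0.142, 0.116 and 0.1 at 6 h. CA9, a pH-regulating carbonic anhydrase, was on the list but was left out by the filter on low values.

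Outside the lists, and chosen after their values were seen, MIR210HG and HILPDA differed alike. MIR210HG, the host transcript of the hypoxia-responsive miR-210, had 46.0, 51.9 and 50.4 rescaled FPKM at 24 h, against 9.05, 11.5 and 6.73 at 6 h (log2 difference 2.35 ± 0.15, adjusted p = 5.55e-09). HILPDA, a lipid droplet protein, had 168, 195 and 197 at 24 h, against 50.7, 57.7 and 78.8 at 6 h (1.59 ± 0.19, adjusted p = 3.98e-05). Neither pair of groups overlapped.

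The stretches before the starts of P4HA1, DDIT4 (described below) and MIR210HG are shown because these 3 genes combine a large rise with the letters of the hypoxia response core. They are 250 bases up to the RefSeq start, on the gene's strand, from RefSeq on GRCh38.p14, and capitals mark ACGTG or its reverse complement CACGT. P4HA1 lies at chr10:73096867-73097116 on the minus strand, DDIT4 at chr10:72273674-72273923 on the plus strand and MIR210HG at chr11:568458-568707 on the minus strand.
P4HA1: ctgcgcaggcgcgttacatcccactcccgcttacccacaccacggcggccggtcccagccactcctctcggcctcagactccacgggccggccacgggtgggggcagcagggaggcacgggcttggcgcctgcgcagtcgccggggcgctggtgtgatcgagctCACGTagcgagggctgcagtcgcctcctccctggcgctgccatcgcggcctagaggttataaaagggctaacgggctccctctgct
DDIT4: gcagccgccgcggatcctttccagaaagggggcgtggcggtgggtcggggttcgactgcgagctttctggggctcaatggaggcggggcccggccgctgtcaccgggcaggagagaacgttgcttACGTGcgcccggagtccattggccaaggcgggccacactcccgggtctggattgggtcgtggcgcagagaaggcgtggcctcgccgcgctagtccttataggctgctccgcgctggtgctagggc
MIR210HG: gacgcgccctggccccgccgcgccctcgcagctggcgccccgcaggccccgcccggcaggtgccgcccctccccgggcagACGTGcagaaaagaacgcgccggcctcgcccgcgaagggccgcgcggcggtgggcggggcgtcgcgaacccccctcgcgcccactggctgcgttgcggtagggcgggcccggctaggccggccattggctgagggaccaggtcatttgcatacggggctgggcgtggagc
The match begins 86 bases before the start in P4HA1, 125 in DDIT4 and 170 in MIR210HG. Over windows of 300 bases that reach 50 bases past the start, ACGTG on either strand was held by 5 of the 10 called hypoxia-induced genes with a RefSeq window (50%) and by 7 of the 14 tested ones (50%), against 21.4% of 35116 windows of all genes. Among glycolysis genes it was held by 2 of 7 called members (28.6%) and by 8 of 19 tested ones (42.1%). The called hypoxia-induced genes with a match were EGLN1, P4HA1, FAM162A, INSIG2 and ERO1A. NDRG1, BNIP3L and VEGFA were not among them, for want of a match or of a window. The windows of PFKFB4, PFKFB3 and KDM3A held no match, which says only that these letters are not in them. A match is a description of the letters and not a binding site.

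Among glycolysis genes, regulators and glucose transporters were called higher, and several abundant enzymes were not. Of 20 tested glycolysis genes, 8 were called higher and 0 lower (background 10.3% and 5.39%), with a median difference of 0.499. In H929, 0 were called higher and 2 lower (PFKFB4 and LDHA), with a median of -0.283. On the deposited scale 1 was called higher and 8 lower. Without 6 h replicate 2, and without 6 h replicate 3, 5 were called higher.

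PFKFB4, one of the bifunctional enzymes that set fructose 2,6-bisphosphate and with it the pace of glycolysis, had the largest rise among the genes named by the rule. It stood at 17.7, 12.3 and 10.8 rescaled FPKM in MM1S at 24 h, against 1.86, 1.15 and 0.929 at 6 h. The log2 difference was 2.65 ± 0.19 (adjusted p = 4.66e-08), and 1.65 on the deposited scale, where it was also called. In H929 the libraries separated the other way, at 1.04, 1.35 and 0.893 at 24 h, against 3.76, 3.70 and 3.03 at 6 h (-1.10 ± 0.19, adjusted p = 0.00601).

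PFKFB3, its paralogue, had 8.48, 12.1 and 10.3 at 24 h, against 3.07, 2.46 and 2.52 at 6 h (1.61 ± 0.14, adjusted p = 8.67e-07). HK2, the inducible hexokinase that traps glucose in the cell, had 21.8, 12.7 and 11.7 at 24 h, against 7.30, 5.57 and 6.98 at 6 h (1.07 ± 0.20, adjusted p = 0.00204). Neither gene overlapped between times, and the HK2 difference was -0.01 on the deposited scale. The remaining calls were the aldolase ALDOC (0.90), the glucose transporters SLC2A3 (0.81) and SLC2A1 (0.51), the phosphofructokinase PFKM (0.74) and TPI1 (0.33).

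LDHA, which turns pyruvate into lactate, stood at 225, 143 and 145 at 24 h, against 116, 112 and 130 at 6 h (0.49 ± 0.17, adjusted p = 0.0612). PGK1 had a difference of 0.34 (adjusted p = 0.0693). GAPDH (-0.22), ALDOA (-0.03) and ENO1 (0.06) were not called and overlapped between times.

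DDIT4, an inhibitor of mTORC1 induced by low oxygen, glucocorticoids and amino acid stress, stood at 348, 396 and 339 rescaled FPKM in MM1S at 24 h, against 112, 119 and 110 at 6 h. The log2 difference was 1.66 ± 0.11 (adjusted p = 7.83e-09), and 0.47, not called, on the deposited scale. In H929 it was 293, 219 and 228 at 24 h, against 528, 621 and 578 at 6 h (-1.23 ± 0.11, adjusted p = 1.57e-06). The MM1S libraries were thus higher at 24 h without overlap, and the H929 libraries lower without overlap.

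DDIT4 stood on the list of the ATF4 and amino acid response. Of its 32 tested members, 7 were called higher and 1 lower (background 10.3% and 5.39%), with a median of 0.201. The lower one was PHGDH, the first enzyme of serine synthesis (-0.47). Without 6 h replicate 1, 4 were called higher, and on the deposited scale 0 were higher and 18 lower. ATF4 itself differed by 0.09 and DDIT3 by -0.07, and neither was called. SESN2, a leucine sensor that restrains mTORC1, stood at 12.7, 14.0 and 14.6 at 24 h, against 9.01, 9.45 and 8.05 at 6 h (0.59 ± 0.11, adjusted p = 0.00179). CBS, an enzyme of the route from homocysteine to cysteine, was low, at 3.59, 1.85 and 2.38 at 24 h and 0.855, 0.600 and 0.115 at 6 h.

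**Figure D2:**
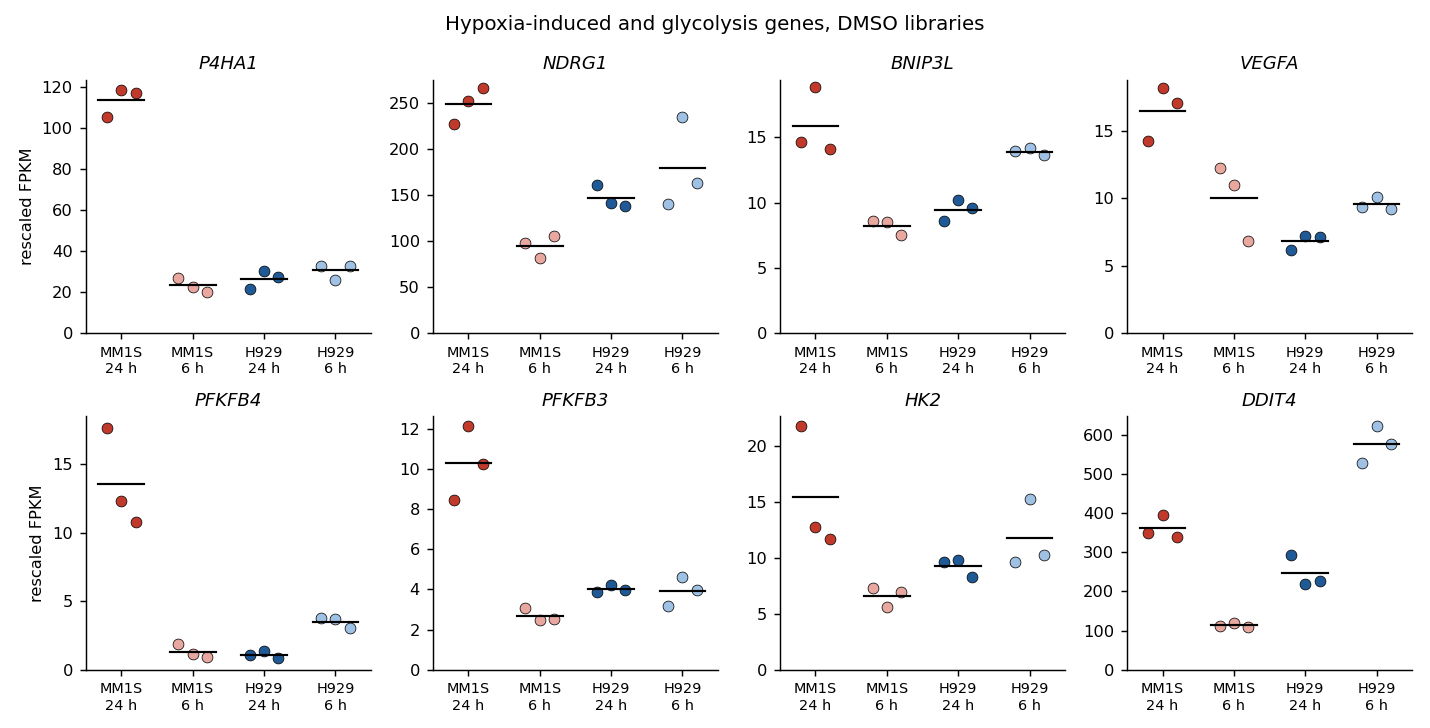
Rescaled FPKM (linear axes from 0) of 8 genes in each DMSO library, with the group mean as a line, for MM1S at 24 h and 6 h and H929 at 24 h and 6 h. In MM1S each gene is higher at 24 h in all 3 libraries, and in H929 PFKFB4, DDIT4, BNIP3L and VEGFA are lower at 24 h in all 3. On the deposited scale the MM1S differences of HK2 (-0.01) and BNIP3L (-0.21) change sign.

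Several inhibitors of cyclin-dependent kinases, the CDKs, rose. CDKN1C, which encodes the CDK inhibitor p57, stood at 93.4, 87.5 and 81.9 rescaled FPKM at 24 h, against 15, 13.9 and 11.3 at 6 h (log2 difference 2.63 ± 0.21, adjusted p = 1.35e-07). CDKN1A, which encodes the p53-induced inhibitor p21, stood at 16.7, 12.0 and 12.7 at 24 h, against 4.41, 4.18 and 2.82 at 6 h (1.63 ± 0.14, adjusted p = 7.07e-07). CDKN2D, an inhibitor of CDK4 and CDK6, had 91.9, 47.3 and 35.7 at 24 h, against 14.5, 16.2 and 17.7 at 6 h (1.68 ± 0.25, adjusted p = 0.000298), with 24 h replicate 1 far above the other 24 h libraries.

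None of these 3 overlapped between times. With CCNG2 (0.78), a cyclin of resting cells, they were the 4 members called higher among 21 tested genes of cell cycle inhibition and quiescence. Of these 21, 0 were lower, and the median was 0.249 (background 10.3% higher and 5.39% lower). As deposited, 1 was higher and 11 lower. CDKN1B, which encodes p27, was not called (0.23). In H929, CDKN1C stood at 1.56 ± 0.607 at 24 h and 1.83 ± 0.515 at 6 h, close to the pseudocount. H929 CDKN1A was high at both times, at 49.2 ± 8.68 at 24 h and 44.3 ± 1.24 at 6 h (0.13, adjusted p = 0.758).

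Of 28 tested p53 targets, 8 rose and 0 fell (background 10.3% and 5.39%), with a median of 0.235. They were CDKN1A, FDXR (0.69), SESN2, GADD45B (0.65), PHLDA3 (1.07), TNFRSF10B (0.49), ZMAT3 (0.52) and TP53I3 (1.07). MDM2, the ubiquitin ligase that p53 induces to limit itself, did not pass, with 25.4, 26.7 and 28.1 at 24 h and 23.9, 20.9 and 32.6 at 6 h (0.07, adjusted p = 0.751), and BAX had -0.36. Without 6 h replicate 2, 5 of the 28 were called higher, and on the deposited scale 0 were higher and 16 lower. In H929, 0 were called either way.

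Most of the heat shock genes and chaperones tested were lower at 24 h. Of 22 tested members, 12 were called lower (background 5.39%) and 1 higher (background 10.3%), with a median of -0.389. In H929, 1 was lower and 0 higher, with a median of -0.163. The count of lower members was 9 to 12 when any 1 MM1S DMSO library was left out. On the deposited scale 20 were lower and 0 higher, beside 56.0% and 0.258% of all genes, and since most genes were lower there, that count gives the falls no support.

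HSPA1B, one of the stress-inducible HSP70 genes, stood at 6.41, 6.82 and 7.75 rescaled FPKM in MM1S at 24 h, against 30.2, 29.6 and 26.3 at 6 h. The log2 difference was -1.89 ± 0.14 (adjusted p = 5.36e-08). HSPA1B has a near-identical copy, HSPA1A, which did not pass the filter, and how the authors' counting split reads between them is not given in the sources used here. In H929, HSPA1B also fell, at 5.87 ± 0.956 at 24 h and 9.54 ± 1.47 at 6 h (-0.62 ± 0.14, adjusted p = 0.0372).

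DNAJB1, the HSP40 partner of HSP70, stood at 108, 79.4 and 85.9 at 24 h, against 228, 220 and 304 at 6 h (-1.45 ± 0.19, adjusted p = 9.46e-05). HSP90AA1, the inducible HSP90, had 177, 120 and 136 at 24 h, against 247, 248 and 384 at 6 h (-1.0 ± 0.18, adjusted p = 0.00173). HSPH1, an HSP110 that recharges HSP70 with ATP, had 23.1, 10.9 and 12.5 at 24 h, against 27.7, 25.9 and 30.3 at 6 h (-0.88 ± 0.17, adjusted p = 0.00234). The libraries of all 3 genes separated in MM1S, with 24 h replicate 1 the nearest to the 6 h level.

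The other falls were STIP1, which bridges HSP70 and HSP90 (-0.85), the small heat shock protein HSPB1 (-0.77), HSPA4 (-0.68), FKBP4 (-0.62), CHORDC1 (-0.57), the mitochondrial chaperonin HSPD1 (-0.52), CACYBP (-0.41) and HSP90AB1 (-0.36). HSF2 rose, with 58.9, 61.4 and 59.5 at 24 h against 33.5, 30.9 and 43.5 at 6 h (0.74 ± 0.16, adjusted p = 0.00622). HSF1, the main heat shock factor, had 0.27 and the constitutive HSPA8 0.25, and neither was called. HSPA6, a strictly inducible HSP70 that was among the largest falls but not on the list, stood at 1.55, 0.911 and 1.31 at 24 h, against 5.47, 6.81 and 2.56 at 6 h (-1.33 ± 0.24, adjusted p = 0.00134).

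The stretches before HSPA1B and HSPA6 are shown for their heat shock element pairs, as 250 bases up to the RefSeq start on GRCh38.p14, at chr6:31827488-31827737 and chr1:161524290-161524539, both on the plus strand. Capitals mark GAANNTTC or TTCNNGAA, each of which reads the same on both strands.
HSPA1B: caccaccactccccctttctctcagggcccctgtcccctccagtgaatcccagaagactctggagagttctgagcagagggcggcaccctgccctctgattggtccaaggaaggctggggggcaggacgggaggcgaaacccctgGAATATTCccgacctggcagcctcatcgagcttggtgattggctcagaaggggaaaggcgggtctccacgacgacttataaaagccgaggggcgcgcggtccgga
HSPA6: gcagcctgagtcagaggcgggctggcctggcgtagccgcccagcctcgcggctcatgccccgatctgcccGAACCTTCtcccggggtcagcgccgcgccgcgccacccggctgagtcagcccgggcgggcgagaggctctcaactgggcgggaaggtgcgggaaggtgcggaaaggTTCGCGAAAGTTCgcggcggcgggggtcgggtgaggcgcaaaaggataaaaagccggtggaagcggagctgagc
The match in HSPA1B begins 105 bases before the start, and the matches in HSPA6 begin 180, 74 and 69 bases before it, the last pair overlapping. Either motif was held by the windows of 3 of the 11 called chaperone genes with a window (27.3%) and by 6 of the 20 tested ones (30%), against 13.5% of all windows of 300 bases. DNAJB1 and HSPH1 had no match in the stretch searched.

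MYC, the transcription factor that drives growth and ribosome production, stood at 7.15, 14.0 and 12.5 rescaled FPKM at 24 h, against 36.8, 32.5 and 18.2 at 6 h (log2 difference -1.29 ± 0.25, adjusted p = 0.00285). The libraries separated, with the lowest 6 h library not far above the highest at 24 h. In H929 the MYC entry lay near the floor of the files, at 0.298 ± 0.125 at 24 h and 0.223 ± 0.127 at 6 h, so that no change could be read there.

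Of 43 tested MYC targets and genes of ribosome biogenesis, 11 fell and 0 rose (background 5.39% and 10.3%), with a median of -0.163. They were SRM, which makes spermidine (-0.81), the nucleolar methyltransferases FBL (-0.75) and NOP2 (-1.06), and WDR74, RRP12, LYAR, DKC1, CAD, PPAN, WDR12 and PNO1 at -0.57 to -1.02. SRM stood at 109, 121 and 109 at 24 h, against 216, 202 and 180 at 6 h. In H929, 0 were lower and 1 higher. Leaving out any 1 MM1S DMSO library left 9 to 12 called lower. All 43 were lower on the deposited scale, where 56.0% of all genes were, which is no support for a fall relative to other genes.

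Replication genes were mostly level relative to the median gene, with a minority lower. Of 46 tested, 7 fell and 0 rose (background 5.39% and 10.3%), with a median of -0.093 (0 higher and 40 lower as deposited). PCNA, the sliding clamp of DNA polymerase, had 54.3, 74.4 and 69.7 at 24 h, against 133, 118 and 103 at 6 h (-0.83 ± 0.22, adjusted p = 0.0168). MCM5 (-0.79), MCM6 (-0.59) and MCM4 (-0.56) of the replicative helicase, UNG (-0.79), DTL (-0.67) and TK1 (-0.55) were the others, while MCM2 (-0.08), MCM3 (-0.03) and CCNE1 (0.00) were not called. Of 46 genes of G2/M and mitosis, 3 rose and 1 fell (CENPF 0.57, FOXM1 0.97 and CENPE 0.58 were the rises), in both directions a smaller share than the 10.3% and 5.39% of all genes. As deposited 0 were higher and 38 lower, and without 6 h replicate 2 the rescaled values gave 0 higher. E2F1 (0.31) and CCND2 (0.57) did not pass.

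**Figure D3:**
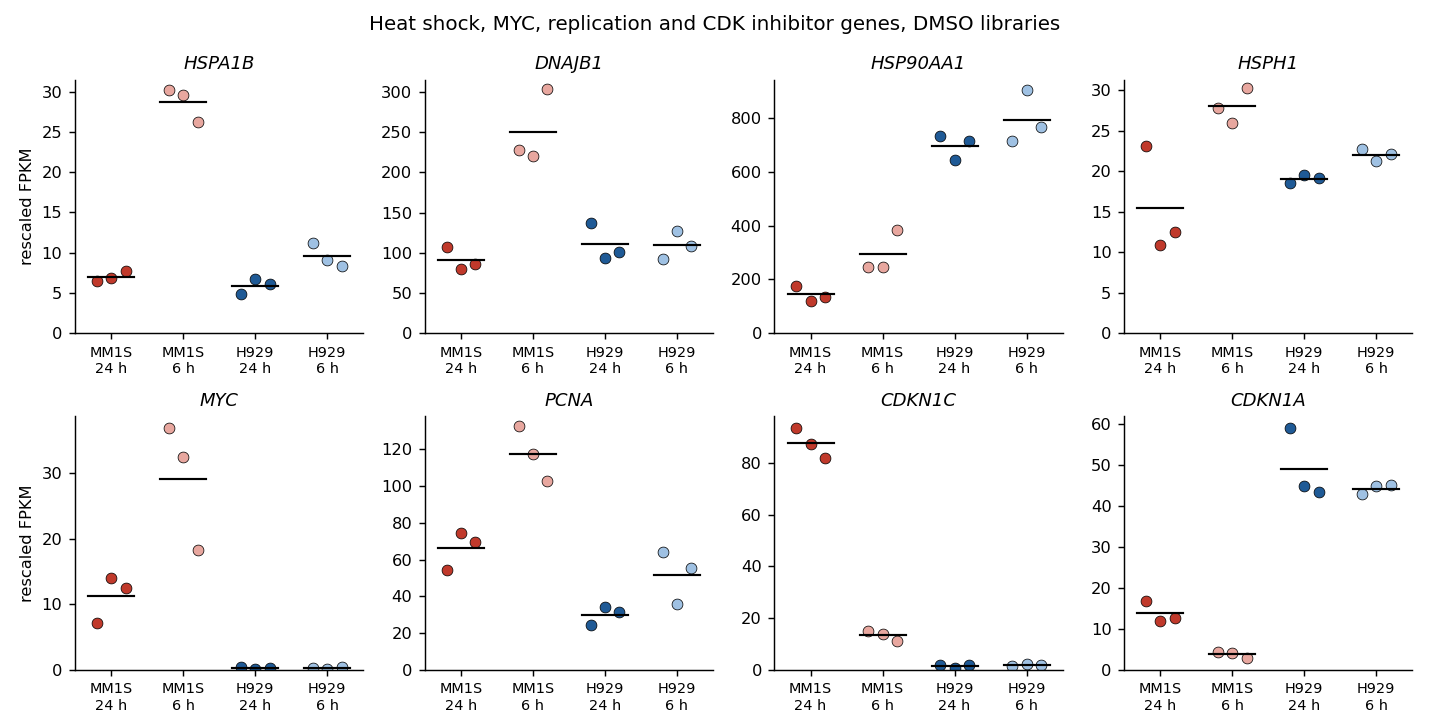
Rescaled FPKM (linear axes from 0) of 8 genes in each DMSO library, with the group mean as a line, for MM1S at 24 h and 6 h and H929 at 24 h and 6 h. In MM1S the 24 h libraries of HSPA1B, DNAJB1, HSP90AA1, HSPH1, MYC and PCNA all lie below the 6 h libraries, and those of CDKN1C and CDKN1A above them. On the deposited scale CDKN1C and CDKN1A also stand higher at 24 h, CDKN1A without a call, and the falls there add nothing, since the median gene lies 0.737 lower.

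Most genes of plasma cell identity were not called, while IRF4, POU2AF1, TNFRSF17 and JCHAIN were called lower. IRF4, the factor that maintains plasma cells, stood at 24.9, 37.0 and 40.4 at 24 h, against 51.9, 52.6 and 51.9 at 6 h (-0.63 ± 0.13, adjusted p = 0.00362). POU2AF1, a coactivator of immunoglobulin and B cell genes, had 57.3, 68.9 and 75.4 at 24 h, against 110, 99.4 and 117 at 6 h (-0.69 ± 0.11, adjusted p = 0.000811). Both separated the times without overlap. TNFRSF17, the receptor BCMA, was called lower with overlapping libraries, at 260, 325 and 308 at 24 h and 481, 462 and 324 at 6 h (-0.49, adjusted p = 0.0334). That call was lost with a replicate block, after cyclic loess, with only the groups compared, and without 6 h replicate 1, 6 h replicate 2 or 24 h replicate 1.

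JCHAIN, the joining chain of polymeric antibody, fell to 1266, 1798 and 1869 at 24 h, against 2777, 2694 and 2360 at 6 h (-0.68 ± 0.14, adjusted p = 0.00341). XBP1, the driver of the secretory apparatus, was not called, with 803, 1081 and 1001 at 24 h and 1041, 1012 and 893 at 6 h (-0.04 ± 0.11, adjusted p = 0.844). Of 21 plasma cell regulators and surface genes, 3 fell (IRF4, TNFRSF17 and MYC, described above) and 0 rose, with a median of -0.119. Of 14 genes of immunoglobulin and secretion, 3 fell and 1 rose, with a median of -0.008. Over all genes tested 5.39% fell and 10.3% rose, with a median of 0.13. The chemokine CCL3 fell to 1788, 1637 and 1683 at 24 h, against 2881, 2958 and 2880 at 6 h (-0.77 ± 0.09, adjusted p = 3.47e-05). MAF, which marks MM1S, was not called (-0.29, adjusted p = 0.132).

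Among regulators of death and metabolism, BMF, a BH3-only protein that promotes apoptosis, rose to 14.9, 12.1 and 9.11 at 24 h, against 5.05, 4.63 and 4.05 at 6 h (1.21 ± 0.17, adjusted p = 0.000163). MCL1, which protects myeloma cells from apoptosis, had 265, 243 and 238 at 24 h, against 196, 190 and 195 at 6 h (0.36 ± 0.08, adjusted p = 0.0071). TXNIP, a brake on glucose uptake that responds to glucose-derived metabolites and glucocorticoids, stood at 166, 274 and 228 at 24 h, against 104, 94.2 and 86.8 at 6 h (1.19 ± 0.14, adjusted p = 3.47e-05). All 3 separated the times. On the deposited scale the MCL1 difference was -0.82, and MCL1 was called lower (limma, adjusted p = 0.0108). The TXNIP difference was 0.01 there, not called.

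Of 28 tested immediate early genes, 8 rose and 1 fell (DUSP4, -0.36), with a median of 0.16 (background 10.3% higher and 5.39% lower). As deposited, 0 rose and 14 fell. IER2 had 15.1, 5.69 and 6.62 at 24 h, against 1.79, 3.26 and 1.99 at 6 h (1.51 ± 0.26, adjusted p = 0.00106), JUNB a difference of 0.89, DUSP6 of 0.85 and SRF of 1.01. H929 held far more of IER2, at 493 ± 20.9 at 24 h and 396 ± 74.2 at 6 h. It also held more JUNB, at 28.5 ± 1.37 at 24 h and 29.4 ± 7.07 at 6 h, against 3.71 ± 0.183 and 1.57 ± 0.412 in MM1S. What this means for the MM1S rises was not tested. FOS (0.13), EGR1 (0.19) and JUN (-0.13) were not called.

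Other lists had a part of their members called, where 10.3% of all genes were called higher and 5.39% lower, with a median of 0.13. Cholesterol synthesis and SREBP2 targets had 5 of 24 higher and 0 lower, among them SREBF2 (0.39) and HMGCS1 (0.67). This list had 6 higher and 0 lower in H929, a line with few calls in all. The MM1S count was 1 without 6 h replicate 1 and 2 without 6 h replicate 2 or 24 h replicate 1, and 0 were higher and 16 lower as deposited. Genes of the unfolded protein response had 6 of 28 higher, with a median of 0.058, and 1 higher without 6 h replicate 2. Among the 6 were DNAJB9 (0.93), CRELD2 (0.49) and the BiP gene HSPA5 (0.29).

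Genes of lysosome and autophagy had 8 of 38 higher and 0 lower (background 10.3% and 5.39%), with a median of 0.158. Among the 8 were CTSL (1.03), CTSB (0.52) and PSAP (0.50). Only 1 was higher without 24 h replicate 1 or without 6 h replicate 2. Interferon-stimulated genes had 6 of 27 higher, all of low level, such as IFIT5 at 5.01, 3.10 and 2.93 at 24 h and 1.56, 1.26 and 2.21 at 6 h. After cyclic loess scaling, which levels differences that go with the gene's level, 0 of the 27 were higher and 1 lower, beside 8.29% and 6.52% of all genes. Cytosolic ribosomal proteins had 9 of 56 higher and 5 lower, with a median of 0.083, against 0.13 over all genes tested. Without 6 h replicate 2, 1 was higher. Nuclear genes of the respiratory chain had 2 of 50 higher and 8 lower, led by ATP5G1 (-0.78) and NDUFA9 (-0.94), and 2 lower without 6 h replicate 2. As deposited, 0 were higher in each of these 6 lists.

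**Figure D4:**
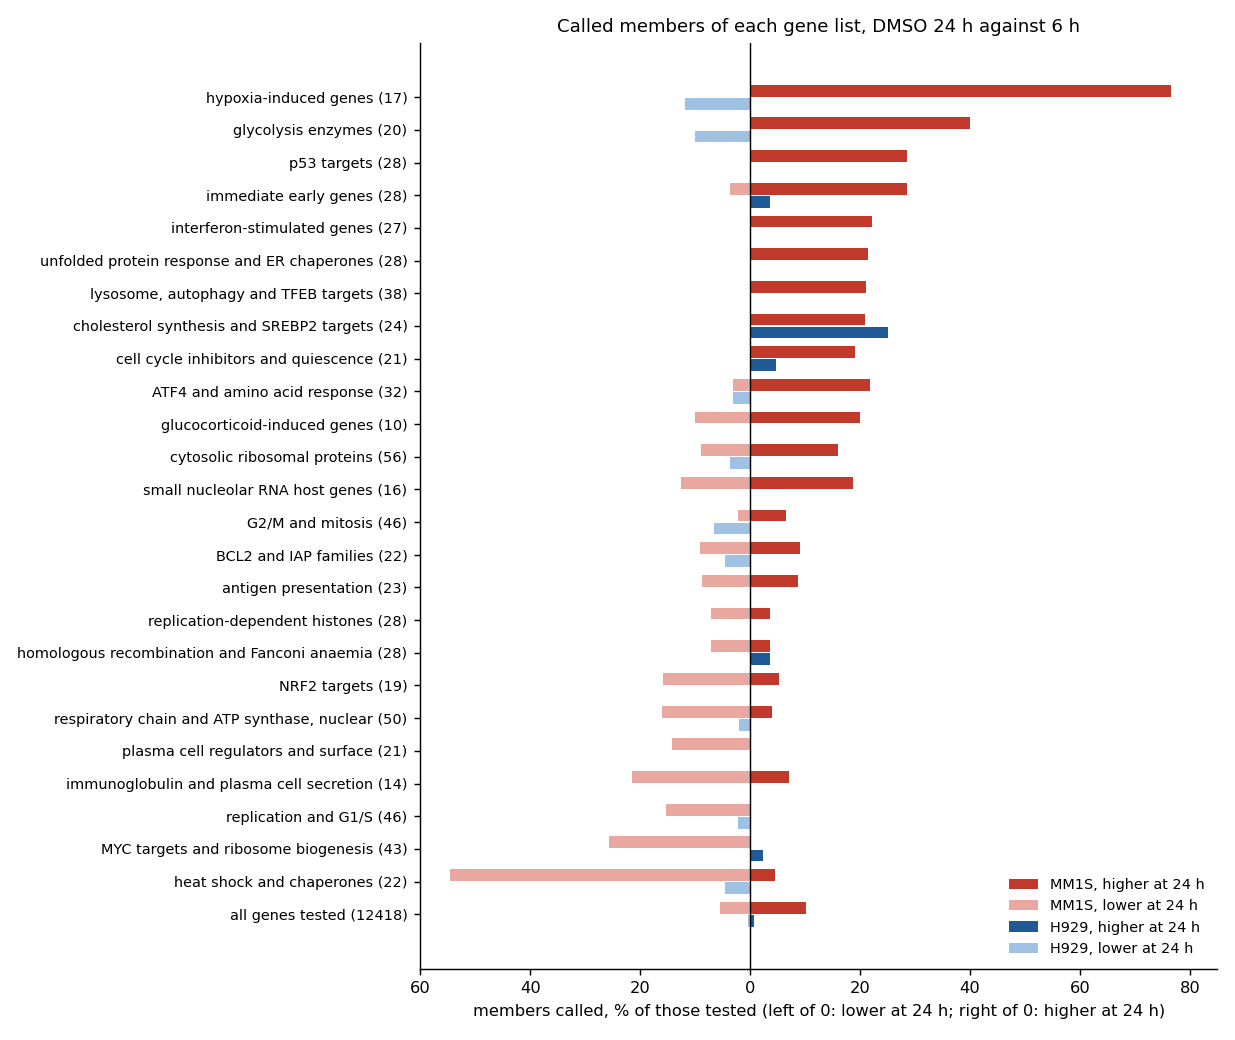
Share of the tested members of each gene list called higher (right of 0) or lower (left of 0) at 24 h after rescaling, for MM1S above H929, with the number tested in brackets and all 12418 genes as the bottom row. Hypoxia-induced genes (13 of 17 higher) and heat shock genes (12 of 22 lower) stand at the ends in MM1S. On the deposited scale the higher calls were 0 or 1 in each list. The lists were written with earlier results of these data known.

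The largest rises by the rule were mostly other than these genes. Beside PFKFB4, CDKN1C and P4HA1 they were PAGE5, MCTS2P, LINC01054, LINC01431 and the antisense entries FOXD3-AS1, IDH1-AS1, CECR5-AS1, NR2F2-AS1 and RTCA-AS1. FOXD3-AS1 stood at 9.16, 1.25 and 3.39 at 24 h, against 0.0896, 0.0737 and 0.116 at 6 h. In all 9 of these entries, 24 h replicate 1 was the highest library. Without it 6 of the 9 lost their call, and the exceptions were PAGE5, IDH1-AS1 and LINC01431. The log2 difference of NR2F2-AS1 was 1.81 with replicate 1 and 0.81 without it. Of 336 tested antisense entries, 42 were higher and 2 lower, against 10.3% and 5.39% of all genes, and after cyclic loess 17 and 5, against 8.29% and 6.52%. Whether the counting used strand is not given in the sources used here, so an antisense entry and its partner cannot be told apart.

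The largest falls held NTAN1, FAM166A, RAD9A, SRSF9, METTL12, TRMT61B, PTCD1, MED4-AS1 and SNHG25 beside the heat shock genes. Without 24 h replicate 1, SRSF9, PTCD1, MED4-AS1 and SNHG25 lost their call, and the others kept it. PTCD1 stood at 0.274 in that library, and at 7.097 and 7.308 in the other 24 h libraries. Its log2 difference ranged from -1.82 to -0.466 when 1 library was left out. FAM166A, METTL12 and SNHG25 were also lower at 24 h in H929 without overlap, though not called there. RAD9A, a part of the DNA damage clamp, stood at 10.5, 16.1 and 22.0 at 24 h, against 42.5, 51.7 and 66.6 at 6 h (-1.70 ± 0.29, adjusted p = 0.00106). NTAN1 was uneven, at 10.6, 0.125 and 2.25 at 24 h and 40.1, 37.6 and 26.4 at 6 h. Of 132 tested small nucleolar RNAs of the SNORA and SNORD classes, which 3′ end libraries are not made to capture, 7 were lower and 1 higher. The share lower was near the 5.39% of all genes, and the share higher was under their 10.3%. The median log2 difference of the 132 was -0.94, against 0.13 over all genes tested.

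The time change differed between MM1S and H929 for 82 genes, 68 more positive in MM1S (0.548% of those tested) and 14 more negative (0.113%), by the interaction term of the same limma fit. On the hypoxia-induced list 6 members had a more positive change in MM1S, namely P4HA1 (difference of the changes 2.46 ± 0.20, adjusted p = 1.97e-07), KDM3A (1.95), NDRG1 (1.64), BNIP3L (1.38), FAM162A (1.25) and VEGFA (1.12). Among glycolysis genes 8 did, namely PFKFB4 (3.75), PFKFB3 (1.56), HK2 (1.36), ALDOC (1.28), LDHA (1.22), SLC2A1 (1.12), PGK1 (0.78) and TPI1 (0.60). MIR210HG had a difference of 3.38 and DDIT4 of 2.88. CDKN1C (2.79) and CDKN1A (1.49) also differed, while HSPA1B (-1.27), DNAJB1 (-1.46) and CCL3 (-1.67) had a more negative change in MM1S.

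RGS1, a regulator of G protein signalling, was called for this difference (2.60 ± 0.33) through H929, where it stood at 0.619 ± 0.362 at 24 h and 6.54 ± 1.10 at 6 h. In MM1S it was not called, at 187 ± 46.0 at 24 h and 143 ± 2.69 at 6 h. The MYC difference between the lines was not called (-1.38, adjusted p = 0.0976). Of the 1274 genes higher in MM1S, 42 were also higher in H929 (3.30% of the MM1S genes and 52.5% of the 80 in H929), and of the 669 lower, 21 were also lower there (3.14% and 44.7% of the 47). Line, dose label and the state of the cultures cannot be told apart in this comparison.

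**Figure D5:**
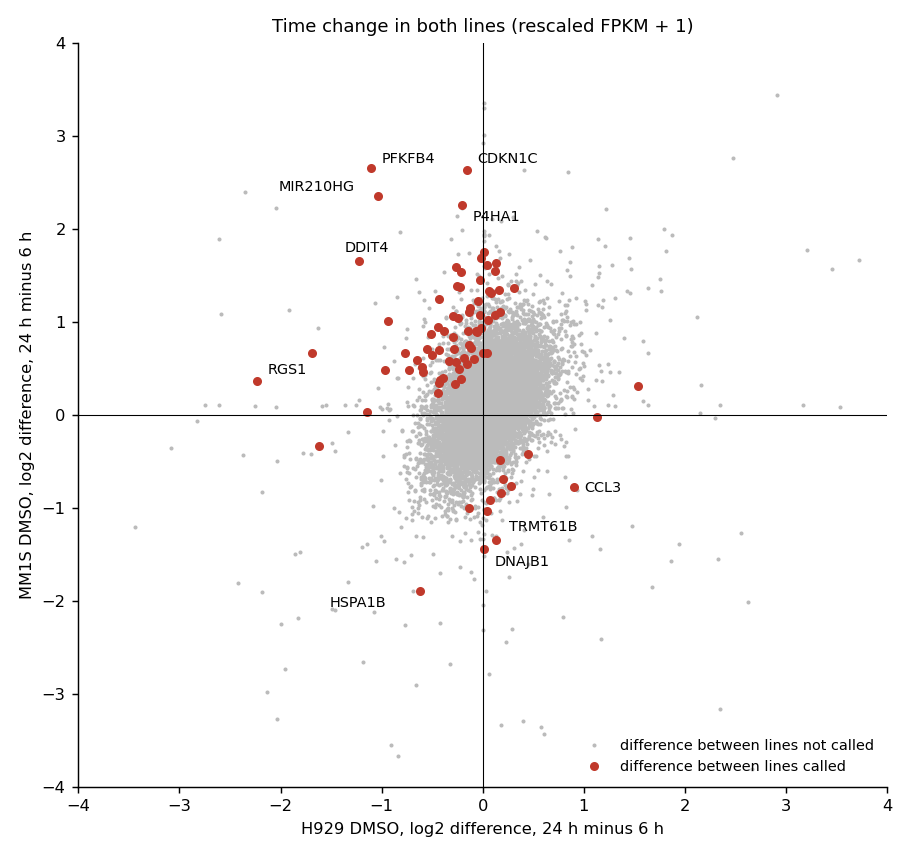
Log2 difference, 24 h minus 6 h, of each tested gene in MM1S DMSO (vertical axis) and H929 DMSO (horizontal axis) on rescaled FPKM + 1; red points are the 82 genes whose difference between the lines was called. PFKFB4, MIR210HG, DDIT4, CDKN1C and P4HA1 lie high in MM1S and at or below 0 in H929; 25 genes outside the axes, 0 of them called, are not shown.

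The same interval in MM1S kept with YKL gave 2842 genes higher (22.9%) and 1785 lower (14.4%) at 24 h than at 6 h. Of the 1274 genes higher with DMSO, 724 were higher there too (56.8%, and 25.5% of the YKL calls), and of the 669 lower, 360 were lower (53.8% and 20.2%). Of the hypoxia-induced genes, 10 of 17 were higher and 1 lower with YKL, with P4HA1 at 1.68, NDRG1 at 1.95 and BNIP3L at 1.30. PFKFB4 (1.77), DDIT4 (1.29), MIR210HG (1.22) and CDKN1C (2.17) were higher there as well. Glycolysis genes had 4 of 20 higher and 9 lower, with GAPDH at -1.12 and TPI1 at -0.68, and replication genes 0 of 46 higher and 38 lower. HSPA1B fell with YKL (-0.79), while DNAJB1 (0.23) and MYC (0.02) were not called. The difference between the time changes with DMSO and with YKL was not tested.

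Few markers of other cells passed the filter on low values. Of 10 T cell markers, 3 passed the filter, and all 10 summed to 5.84 to 10.8 rescaled FPKM at 24 h and 3.30 to 7.31 at 6 h. Of 10 monocyte markers, 3 passed, and all 10 summed to 3.41 to 9.03 at 24 h and 1.47 to 2.82 at 6 h, which did not overlap. Of 10 epithelial and fibroblast markers, 2 passed, and all 10 summed to 2.18 to 5.13 at 24 h and 1.42 to 2.20 at 6 h. These sums include entries that failed the filter, which were divided by smaller factors at 24 h. None of the 8 markers that passed was called in MM1S DMSO (limma), and none of the 5 markers of MM1S. Of the 4 markers listed for H929, 1 was called higher in MM1S at 24 h (3 after cyclic loess), all 4 had a positive difference (median 0.447), and their sums were 133.5 to 312 at 24 h and 111 to 134 at 6 h. This list shares CCND2 with the MM1S list, and CCND2 stood at 1.16 at 24 h in H929. PAGE5, among the largest rises, averaged 598 ± 79.2 at 24 h and 564 ± 89.8 at 6 h in H929. The part of all these markers in the results was not tested. Mitochondrially encoded transcripts had no entry and give no check of RNA quality here.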

How the data were processed

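Tables of FPKM, 1 per library with 26249 genes and 92 spike-in entries, were deposited by the authors. Reads were processed with HISAT2 and Cuffnorm on hg19, per the submitters' processing notes, which give no versions. FPKM divides by gene length, which 3′ end reads do not need. The division drops out of a gene's ratio between groups but not out of the filter, the pseudocount or levels between genes. Whole reads could not be recovered from these values, which leaves the sequencing depth unknown.

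Libraries were divided by median-of-ratios factors (over genes whose geometric mean reached 5 FPKM). The 12418 genes that reached 1 deposited FPKM in 3 or more of the 24 libraries were tested, two-sided, on log2(rescaled FPKM + 1) by the limma-trend method (limma 3.58.1, R 4.3.3), with 8 group means and Benjamini-Hochberg adjusted p-values. This scale understates changes of low genes. Named genes were, among called genes without overlap, the 12 of largest rise and the 12 of largest fall (LOC and small RNA entries left out), the 3 called members with the smallest p of each list with at least 5 tested and 3 called, 4 per sign of the difference between lines, and 10 always named. Some genes the rule names are not reported here. The members, lists and rule were chosen with earlier results of these data known. Of 914 list members, 890 had an entry.

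The alternatives were the deposited scale, upper-quartile scaling, pseudocounts of 0.25 and 4, no filter, a filter at 5 FPKM, only the groups compared, a replicate block and leaving out each library. Cyclic loess was added after seeing the data. Promoter windows are RefSeq's on GRCh38.p14.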

Additional observations from a re-analysis of the deposited data

Results flagged for a closer look

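The time change differed between the lines for 82 genes by the interaction term of limma (Benjamini-Hochberg adjusted), and the 4 of each sign that the rule for named genes picks are given here, MIR210HG (3.38) being outside that rule. The difference, MM1S minus H929, was 3.75 for PFKFB4, 2.88 for DDIT4, 2.79 for CDKN1C and 2.60 for RGS1. It was -1.67 for CCL3, -1.48 for TRMT61B, -1.46 for DNAJB1 and -1.27 for HSPA1B. PFKFB4 and DDIT4 separated the times in opposite directions in the 2 lines, and so did CCL3, which stood at 1703 ± 78 rescaled FPKM at 24 h and 2906 ± 45 at 6 h in MM1S, against 338 ± 33.4 at 24 h and 180 ± 11.6 at 6 h in H929 (SD, n = 3 each). RGS1 was called through H929, and CDKN1C, DNAJB1 and TRMT61B through MM1S, since the other line was not called. TRMT61B, a mitochondrial tRNA methyltransferase, was low, at 1.5 ± 0.436 at 24 h and 5.39 ± 1.23 at 6 h in MM1S. Line, dose label and culture cannot be told apart here.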

How the results depend on the processing

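Limma called 1943 genes for time in MM1S DMSO, 127 in H929 DMSO and 82 for the difference between the lines after rescaling. As deposited the counts were 6982, 18 and 3688, without a filter 10781, 74 and 57, and with only the compared groups in the fit 24, 26 and 42, where fewer libraries estimate the spread. Cyclic loess gave 1839, 262 and 146, and a filter at 5 FPKM 1656, 197 and 88. Leaving out any 1 library gave 852 to 2329, 37 to 355 and 47 to 99. The lowest MM1S count came without 6 h replicate 2, and it was 966 without 24 h replicate 1 and 1063 without 6 h replicate 1. Where no construction shows it, the cause was not tested. Without a filter, 9831 of the 10781 MM1S calls were higher. The deposited values hold no zeros, so entries at the floor are divided too, by factors that were smaller at 24 h in MM1S. How many of these calls came from that was not tested. Other scalings and pseudocounts kept each count within 1.5 times, and the MM1S YKL count did so throughout.

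Whether replicate numbers pair the MM1S samples could not be decided with 3 libraries per group. Same-numbered libraries deviated from their group means with correlations of -0.042, 0.159 and 0.038, and differently numbered ones with -0.213 to 0.12. With a replicate block 1645, 55 and 61 genes were called.

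Of 85 called genes that the rule names for MM1S, not all described above, 78 kept their call under cyclic loess, 77 under the block, 51 without 24 h replicate 1 and 8 with only the compared groups. Direction changed only for the deposited scale, in 27 of them and in 3 genes not called, and for XBP1, which was not called and ranged from -0.1281 to 0.0866 when 1 library was left out (0.0056 without 6 h replicate 1, 0.0866 without 24 h replicate 1). As deposited, where the median gene lay at -0.737, the log2 differences were SREBF2 (-0.76), HMGCS1 (-0.46), HK2 (-0.0053), BNIP3L (-0.21), SESN2 (-0.49), DNAJB9 (-0.23), CRELD2 (-0.68), SSR2 (-0.78), CENPF (-0.48) and FOXM1 (-0.14). They were likewise CENPE (-0.23), FDXR (-0.38), RPS18 (-0.48), RPS19 (-0.29), RPL10 (-0.39), DUSP6 (-0.30), PARP14 (-0.21), IFIT5 (-0.022), EIF2AK2 (-0.30) and PSMB8 (-0.69). The rest were CTSB (-0.60), PSAP (-0.69), GABARAPL2 (-0.064), MCL1 (-0.82), TSC22D3 (-0.18), SNHG6 (-0.44), SNHG8 (-0.74), CCND2 (-0.60), E2F1 (-0.81) and CDK7 (-0.64). Among all these, SREBF2, SSR2, PSMB8, MCL1 and E2F1 were called lower as deposited, and the others were not called. FPKM without counts gives no depth, so the counting error of low entries cannot be estimated.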

Other observations

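MALAT1, APLN, CD9 and SNORD28 lie outside the groups above and were chosen after their values were seen, while TSC22D3 and PSMB8 came from the rule for named genes. MALAT1, an abundant nuclear long noncoding RNA, was called higher in both lines, with 645, 453 and 638 rescaled FPKM at 24 h against 145, 117 and 324 at 6 h in MM1S, and 67.9 ± 4.18 at 24 h against 24.8 ± 7.08 at 6 h in H929 (log2 differences 1.69 and 1.45, limma adjusted p = 0.000557 and 0.00921). APLN, a secreted peptide that acts on blood vessels, had 7.45, 4.49 and 3.64 at 24 h, against 0.744, 0.711 and 1.16 at 6 h in MM1S (log2 difference 1.69 ± 0.18 SE, limma adjusted p = 1.26e-05), while in H929 it averaged 0.238 ± 0.0868 at 24 h and 0.255 ± 0.0393 at 6 h (SD, n = 3 each). CD9, a tetraspanin of the cell surface, was called higher (limma adjusted p = 0.012), at 2356, 651 and 563 at 24 h and 277, 266 and 324 at 6 h, with replicate 1 far above the other 24 h libraries. As deposited, neither CD9 nor MALAT1 was called in MM1S (limma adjusted p = 0.338 and 0.194).

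TSC22D3, the glucocorticoid-induced leucine zipper, rose to 143, 109 and 111 at 24 h, against 61.4, 60.1 and 57.7 at 6 h (log2 difference 1.0 ± 0.19 SE, limma adjusted p = 0.00204; -0.18 as deposited). PSMB8, a subunit of the immunoproteasome, had 135, 127 and 139 at 24 h, against 91.3, 87.4 and 106 at 6 h (log2 difference 0.49 ± 0.11 SE, limma adjusted p = 0.00644). As deposited the PSMB8 difference was -0.69, and the gene was called lower. Of 23 tested genes of antigen presentation 2 were higher and 2 lower, against 10.3% and 5.39% of all genes. The nucleolar RNA entry SNORD28 stood at 0.237, 0.108 and 0.142 at 24 h, against 181, 147 and 131 at 6 h in MM1S (limma adjusted p = 0.0212), but within 1 group it also took both kinds of value, with 0.0686, 0.0615 and 236 in the H929 24 h libraries.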
